A study of Bos taurus and Bos indicus with 3 samples.

Results

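The interleukin-1 (IL-1) family genes described here are IL1A, IL1B, IL1RN, IL1R1, IL1R2, IL1RAP, IL18 and CASP1. A gene was taken as measured where a gene model of the deposited table carried its symbol or the entry name of its bovine protein in UniProt. This gave 5 of the 8 genes, each on 1 model, among 25968 gene models in all. No model carried a name of IL1R2, IL1RAP or CASP1, and these 3 genes were not analysed here.

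Poly(A)+ RNA from blood leukocytes was sequenced as 1 library per breed. The Holstein library came from a blood pool of 40 cows and the Jersey library from a pool of 7 cows, both taurine breeds (Bos taurus) kept on University of Wisconsin farms. The Cholistani library came from a pool of 45 cows of an indicine breed (Bos indicus) on a farm in Punjab, Pakistan, and its RNA was shipped in the storage matrix RNAStable. The study set out to compare expression between the breeds, but breed, farm, country and RNA transport cannot be told apart in these libraries, and neither treatment nor age is given by the labels. Pooling before extraction leaves no replicate, so no test, standard error or interval could be computed for any value, and differences below are differences between 3 libraries. Levels are FPKM, fragments mapped to a gene model scaled to its exon length and library, with upper-quartile normalization by the authors. They can be set side by side for different genes inside a library. The median of models above 0 was 91.6 FPKM (Holstein), 89.6 (Jersey) and 93.8 (Cholistani). The number of fragments behind each value is unknown.

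IL-1 is among the earliest signals of inflammation and is made mainly by monocytes, macrophages and neutrophils. IL1A and IL1B encode the agonists, which bind the receptor encoded by IL1R1. The receptor then recruits the accessory protein of IL1RAP and signals through MYD88 and the IRAK kinases to NF-kappaB. The pathway carries its own brakes: IL1RN encodes an antagonist that occupies the receptor without a signal, and IL1R2 a decoy receptor. IL1B and IL18 are made as precursors that caspase-1, the product of CASP1, cleaves inside the inflammasome, and IL18 acts on a receptor of its own that favours interferon-gamma production.

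Among these genes, IL1B had been chosen by the study, from these same libraries, for real-time RT-PCR. The oligos of that assay are shown because they mark which transcript was measured a second way. Both are designed sequences, written 5′ to 3′ with no part marked by capitals, and their lengths are 18 and 20 bases.
IL1B forward: aggaaatgaaccgagaag
IL1B reverse: acacaagacaggtatagatt

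The agonist genes carried the widest differences between the libraries. IL1B (listed as IL1B_BOVIN, btau4.0 chromosome 11, from 48249241 to 48257632) had 89.3 FPKM (Holstein), 51.4 (Jersey) and 1851 (Cholistani). The Cholistani level was 20.7 times that of Holstein and 36.0 times that of Jersey, while the taurine libraries lay within 2-fold of each other. Among models above 0 in each library, IL1B moved from the middle of the range, at percentile 49.4 in Holstein and 36.7 in Jersey, to percentile 95.6 in Cholistani.

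IL1A (IL1A_BOVIN, chromosome 11, from 48187707 to 48198686) reached 86.0 FPKM in Cholistani, whereas both taurine libraries list it at 0. No ratio can be given against a value of 0 without the fragment counts. Of the models above 0, 48.4% in Holstein and 49.0% in Jersey lay below 86.0 FPKM, so the IL1A level of Cholistani was within the range that the taurine libraries list for other genes. In all, 981 models were listed at 0 in both taurine libraries and above 0 in Cholistani, of which 60 reached the level of IL1A and 8 of those had a gene name.

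The antagonist gene IL1RN (listed as IL1RA_BOVIN, chromosome 11, from 48536384 to 48543828) was abundant in every library, with 639.8 FPKM (Holstein), 560.5 (Jersey) and 1029.8 (Cholistani). It was the most abundant of the measured IL-1 family genes in both taurine libraries, at percentile 91.0 of models above 0 in Holstein and 89.7 in Jersey. Its Cholistani level was 1.61 times that of Holstein and 1.84 times that of Jersey, below 2-fold in each case. When every library was rescaled to the same FPKM sum, the log2 difference between Cholistani and Holstein was 0.01.

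IL18 (IL18_BOVIN, chromosome 15, from 20664728 to 20673664) had 49.7 FPKM (Holstein), 84.8 (Jersey) and 110.0 (Cholistani). The Cholistani level was 2.21 times that of Holstein and 1.3 times that of Jersey, and Jersey had 1.7 times the Holstein level. The step past 2-fold against Holstein held on the deposited scale, whichever pseudocount was added, and was lost on every other scale. The log2 difference was 0.93 after centring on the median difference of models with at least 10 FPKM in both libraries, 0.59 after scaling to GAPDH, the reference gene of the study's RT-PCR, and 0.46 after rescaling to equal sums.

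The receptor gene IL1R1 (chromosome 11, from 7116466 to 7134101) ran the other way. It had 137 FPKM (Holstein), 100.3 (Jersey) and 70.1 (Cholistani), the only measured member with its lowest level in the Cholistani library. The Cholistani level was 0.512 times that of Holstein and 0.699 times that of Jersey, and the log2 difference of FPKM + 1 against Holstein was -0.96. This difference was -1.63 after rescaling to equal sums, -1.5 after scaling to GAPDH and -1.15 after centring. Pseudocounts of 0.1 and 10 FPKM, which cannot change its sign, gave -0.97 and -0.88.

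**Figure D1:**
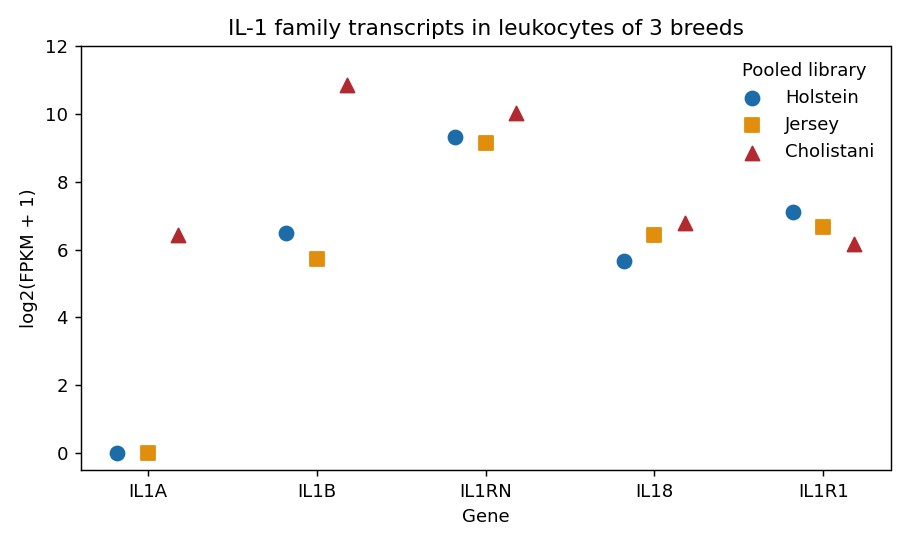
Level of the 5 measured IL-1 family genes as log2(FPKM + 1), 1 point per pooled library (circles Holstein, squares Jersey, triangles Cholistani). IL1B stands at 89.3, 51.4 and 1851 FPKM, IL1A is above 0 in Cholistani alone, and IL1R1 has its lowest point in Cholistani.

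The order of the genes by level therefore differed between the libraries. In Holstein it ran from IL1RN over IL1R1, IL1B and IL18 to IL1A, and in Jersey from IL1RN over IL1R1, IL18 and IL1B to IL1A. In Cholistani it ran from IL1B over IL1RN, IL18 and IL1A to IL1R1. Without replicates it is not known which neighbours in these orders differ by more than the error of a library; the closest were IL18 at 84.8 and IL1R1 at 100.3 FPKM in Jersey, and IL1R1 at 70.1 and IL1A at 86.0 FPKM in Cholistani.

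Ratios between genes inside a library do not depend on how the libraries were scaled. The IL1B to IL1RN ratio, agonist over antagonist transcript, was 0.14 (Holstein), 0.0917 (Jersey) and 1.8 (Cholistani). It was thus 12.9 times higher in Cholistani than in Holstein and 19.6 times higher than in Jersey, and the antagonist transcript was the more abundant of the pair in the taurine libraries only. Of the summed FPKM of IL1A, IL1B and IL1RN, the antagonist made up 87.7% (Holstein), 91.6% (Jersey) and 34.7% (Cholistani). IL1B made up 12.3%, 8.4% and 62.4%, and IL1A 2.9% in Cholistani.

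**Figure D2:**
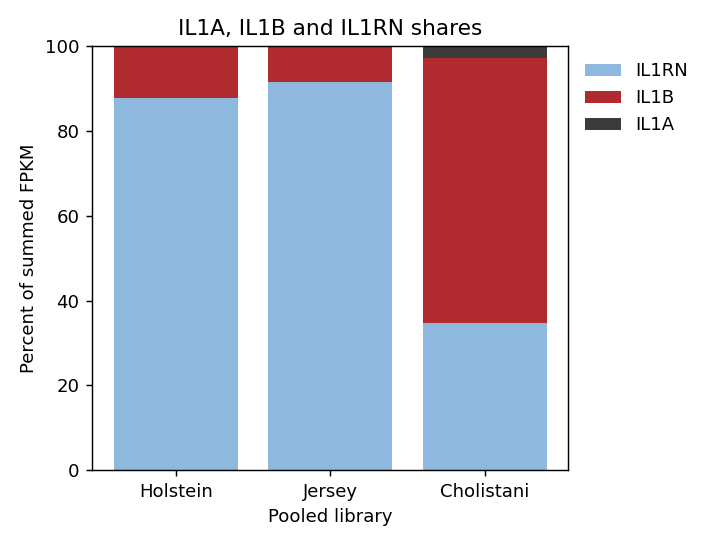
Percent of the summed FPKM of IL1A, IL1B and IL1RN held by each gene, 1 stacked bar per pooled library. IL1RN fills 87.7% of the Holstein bar and 91.6% of the Jersey bar, and IL1B 62.4% of the Cholistani bar.

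The balance of agonist to receptor transcript shifted further still. The IL1B to IL1R1 ratio was 0.652 (Holstein), 0.513 (Jersey) and 26.4 (Cholistani), and the IL1RN to IL1R1 ratio was 4.67, 5.59 and 14.7. The IL1B to IL18 ratio, between both caspase-1 substrates, was 1.8 (Holstein), 0.606 (Jersey) and 16.8 (Cholistani). Against IL1A, IL1B was 21.5 times as abundant in Cholistani.

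Set against all models, 3 of the 5 measured genes (IL1A, IL1B and IL18) exceeded Holstein by 2-fold or more of FPKM + 1 in Cholistani and 0 were as far below it, where 19.7% of the 15284 models above 0 in any library were higher and 13.7% lower. Against Jersey, 2 of 5 (IL1A and IL1B) were higher and 0 lower, with 17.2% of models higher and 14.2% lower. Between Jersey and Holstein 0 of 5 passed 2-fold in either direction, with 7.99% of models higher and 4.7% lower in Jersey. All 5 genes had more than 50 FPKM in their highest library. Of the 9755 models with at least 50 FPKM there, 16.3% passed 2-fold upward and 7.67% downward from Holstein to Cholistani, 13.8% and 7.26% from Jersey to Cholistani, and 3.6% and 1.56% from Holstein to Jersey. IL1A, at 0 in both taurine libraries, could only be counted as higher, and passes through the added 1 FPKM. The median log2 difference of the 5 genes was 1.13 against Holstein and 0.88 against Jersey (0.91 and 0.62 without IL1A), beside 0.15 and 0.12 over all models. The Cholistani library enters both of these comparisons. With 5 genes, the counts describe the genes and no more.

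Only a small part of the transcriptome differed as far as IL1B. A log2 difference of at least its 4.36 between Cholistani and Holstein was found for 546 models, 3.57% of those compared, and a difference of at least its 5.14 between Cholistani and Jersey for 230 models, 1.5%. By contrast, 28.6% of models were at least as far above Holstein as IL1RN, and 17.2% as far as IL18. At least as far below Holstein as IL1R1 were 14.3% of models.

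**Figure D3:**
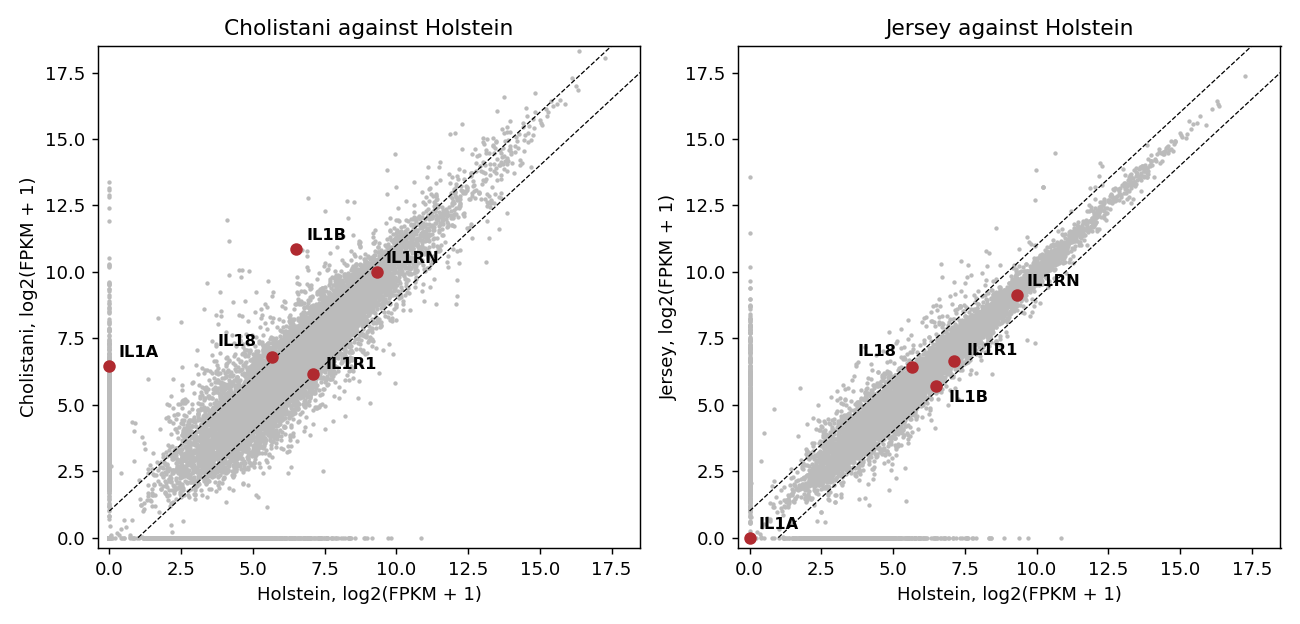
Level of all 15284 models above 0 in any library (grey), as log2(FPKM + 1), in Cholistani (left) and Jersey (right) against Holstein, with the 5 IL-1 family genes in red and dashed lines at 2-fold. On the left IL1B and IL1A lie far above the cloud's upper line and IL18 just above it, and on the right all 5 genes lie between the lines.

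IL1A, IL1B and IL1RN lie in a cluster of IL-1 genes on chromosome 11, together with the IL-36 and IL-37 genes, cytokines best known from skin and other epithelia. The table listed 15 models in this stretch of 473 kb, of which 8 were at 0 in every library. Among these were IL1F6, IL1F8 and IL1F9 (older symbols of IL36A, IL36B and IL36G), IL1F7 (IL37) and IL1F10. The nearest other expressed models around IL1A and IL1B were CKAP2L, a spindle protein gene beyond IL1A, at 11.5 FPKM (Holstein), 12.5 (Jersey) and 13.7 (Cholistani), and LOC783761, an uncharacterised model of 747 bases between IL1A and IL1B, at 462, 569 and 1166 FPKM. Beyond IL1RN, a model merging PSD4 with a 5S rRNA had 301 FPKM (Holstein), 317.5 (Jersey) and 226 (Cholistani). Neither CKAP2L nor LOC783761 differed between Cholistani and Holstein by as much as IL1A or IL1B: the log2 differences were 0.23 for CKAP2L and 1.33 for LOC783761.

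**Figure D4:**
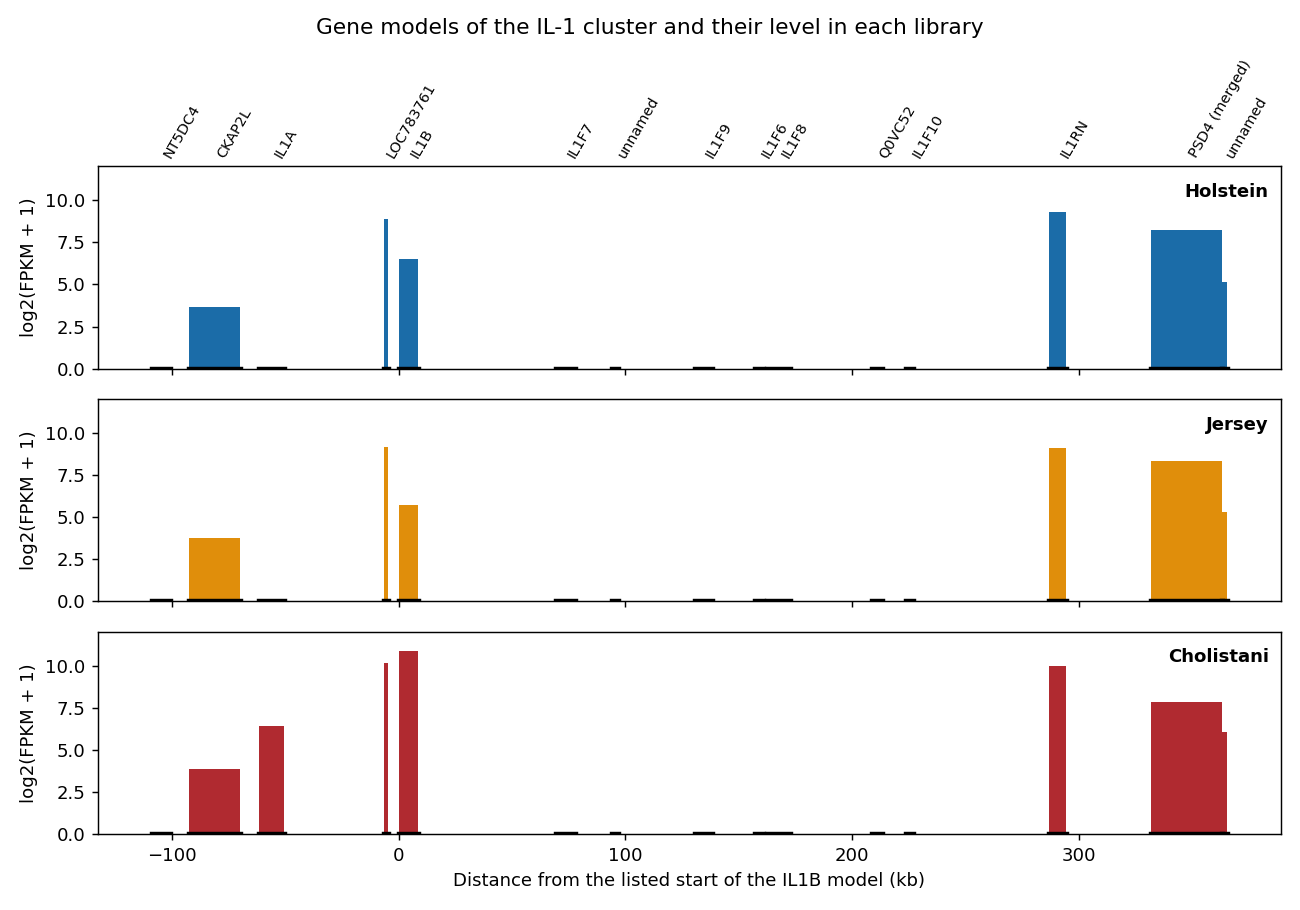
Gene models of the IL-1 cluster by distance in kb from the listed start of the IL1B model, with bar height as log2(FPKM + 1) and bar width as the span of the model (at least 2 kb drawn), 1 panel per pooled library. The IL1A bar is present in Cholistani alone, the IL1B bar is highest there at 1851 FPKM, and the IL-36 and IL-37 models between IL1B and IL1RN are at 0 in all panels.

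IL1R1 lies far from these genes in a cluster of receptors of the family. IL1RL2, the receptor of IL-36, was listed at 0 in every library. IL1RL1, the receptor of IL-33, had 5.24 FPKM in Holstein and 5.10 in Jersey and was listed at 0 in Cholistani. An unnamed model just before IL1R1 held 93.6 (Holstein), 56.3 (Jersey) and 32.3 FPKM (Cholistani), the same order of libraries as IL1R1. Other models of the cluster had other orders. A model without a gene symbol beyond IL1RL1 had 21.3 (Holstein), 24.4 (Jersey) and 6.99 FPKM (Cholistani). A short unnamed model was above 0 in Jersey alone, at 10.3 FPKM.

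Other genes of the pathway were taken from a list of 60 genes by role, of which 38 had a model and 32 were above 0 in any library. Of these 32, 14 exceeded the Holstein level at least 2-fold in Cholistani, 1 was lower and 17 neither, and the counts against Jersey were also 14, 1 and 17. Over all models the shares were 19.7% higher and 13.7% lower against Holstein, and 17.2% and 14.2% against Jersey. For genes above 0 in 1 library of a pair alone, the direction of any difference was fixed in advance. Of the 28 pathway genes above 0 in both Cholistani and Holstein, 11 were higher and 0 lower, where all models above 0 in both gave 13.7% higher and 8.52% lower. Of the 27 above 0 in both Cholistani and Jersey, 10 were higher and 0 lower, beside 1500 higher and 940 lower of 12538 such models. Between Jersey and Holstein 0 were higher, 1 lower and 31 neither.

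Of 10 listed genes that process and release IL1B and IL18, 6 were measured, and all 6 differed by less than 2-fold as deposited. Most models did so too: of those above 0 in both Cholistani and Holstein, 13.7% were higher and 8.52% lower. CASP8, GSDMD, NLRP1 and P2RX7 had no model under their name. PYCARD, the adaptor that joins the inflammasome sensor to caspase-1, was the most abundant of the 6 at 1022 FPKM (Holstein), 859 (Jersey) and 1321 (Cholistani). NLRP3, the sensor, had 73.2, 54.2 and 87.0 FPKM. The caspase gene listed as CASPD_BOVIN (a synonym of CASP4 in RefSeq) had 601, 484 and 719 FPKM, and NLRC4, another sensor, 92.7, 74.9 and 50.7 FPKM. NLRC4 passed 2-fold below Holstein on other scales, at -1.52 after rescaling to equal sums, -1.39 after scaling to GAPDH and -1.05 after centring. The median log2 difference of this group was 0.13 against Holstein and -0.54 after rescaling to equal sums.

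Of the other ligands and receptors, 8 had a model and 2 were above 0 in any library. IL18BP, which encodes a secreted protein that binds and neutralises IL-18, had 16.9 FPKM (Holstein), 16.1 (Jersey) and 101 (Cholistani). The ratio of IL18 to IL18BP was 2.94 (Holstein), 5.25 (Jersey) and 1.09 (Cholistani). The IL18BP model spans 175.7 kb and overlaps 4 other models, so its values are uncertain.

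Of the genes that carry the signal from the receptor, 12 were measured, all of them above 0 in every library. At least 2-fold above the Holstein level in Cholistani were 2 of the 12 (16.7%, near the 13.7% of all models above 0 in both libraries), and 0 were as far below it. The same counts held against Jersey. MYD88, the adaptor of the receptor, had 855 FPKM (Holstein), 749 (Jersey) and 836 (Cholistani). The 2 higher genes were ECSIT, an adaptor that binds TRAF6, with 137, 151 and 314 FPKM, and MAP2K6, a kinase that activates p38, with 37.1, 37.6 and 77.3 FPKM. Neither passed 2-fold when the libraries were rescaled to equal sums or to GAPDH or centred on the median, and the median log2 difference of the group was -0.11 against Holstein.

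Of the genes that IL-1 is known to induce, 12 were measured, of which 3 (IL6, CCL2 and CCL20) were above 0 in Cholistani alone and so could only be counted as higher. Among the 9 above 0 in both Cholistani and Holstein, 8 were at least 2-fold higher in Cholistani and 0 lower, and among the 8 above 0 in both Cholistani and Jersey, 7 were higher and 0 lower. With the genes at 0 included, the counts were 11 of 12 higher in both comparisons, beside 19.7% (Holstein) and 17.2% (Jersey) of all models. The median log2 difference against Holstein was 2.13 over the 9 genes and 2.46 over all 12. After rescaling to equal sums, 9 of 12 were higher against either taurine library, beside 11.6% (Holstein) and 10.4% (Jersey) of all models. The 3 genes at 0 in both taurine libraries were among them, and against Jersey also PTX3, at 0 there. These genes answer to many other stimuli too, among them TNF and Toll-like receptor ligands, so their count does not single out IL-1. The list was also drawn up with earlier results of these data known. It holds NFKBIZ, which the study had chosen for RT-PCR from these same libraries. Part of the excess over the share of all models may therefore be built in.

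Among them NFKBIZ, a nuclear regulator of NF-kappaB, had 49.7 FPKM (Holstein), 46.2 (Jersey) and 546 (Cholistani). ICAM1, an adhesion molecule for leukocytes, had 22.7, 23.2 and 168 FPKM, and PTGS2, the inducible cyclooxygenase, 8.47, 5.60 and 50.2 FPKM. BCL3, a further NF-kappaB regulator, had 291, 295.5 and 1279 FPKM, the highest level of the group in Cholistani. PTX3, a soluble pattern recognition protein, had 12.02 (Holstein) and 71.8 FPKM (Cholistani), and 0 in Jersey. IL6, CCL2 and CCL20, a cytokine and a pair of chemokines, were listed at 0 in both taurine libraries and had 16.9, 13.6 and 34.4 FPKM in Cholistani. SOD2, a mitochondrial antioxidant enzyme, was the gene of the group within 2-fold, at 554, 468 and 677 FPKM, and had the highest level of the group in Holstein. CXCL8, a chemokine that draws neutrophils, had the highest level of the group in Jersey, at 341, 522 and 1068 FPKM. IL6, CCL2, CCL20, SOD2, CXCL8, NLRP3, NLRC4, CASPD_BOVIN, IL1RL1 and the neighbours of the members were named after their values were seen.

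**Figure D5:**
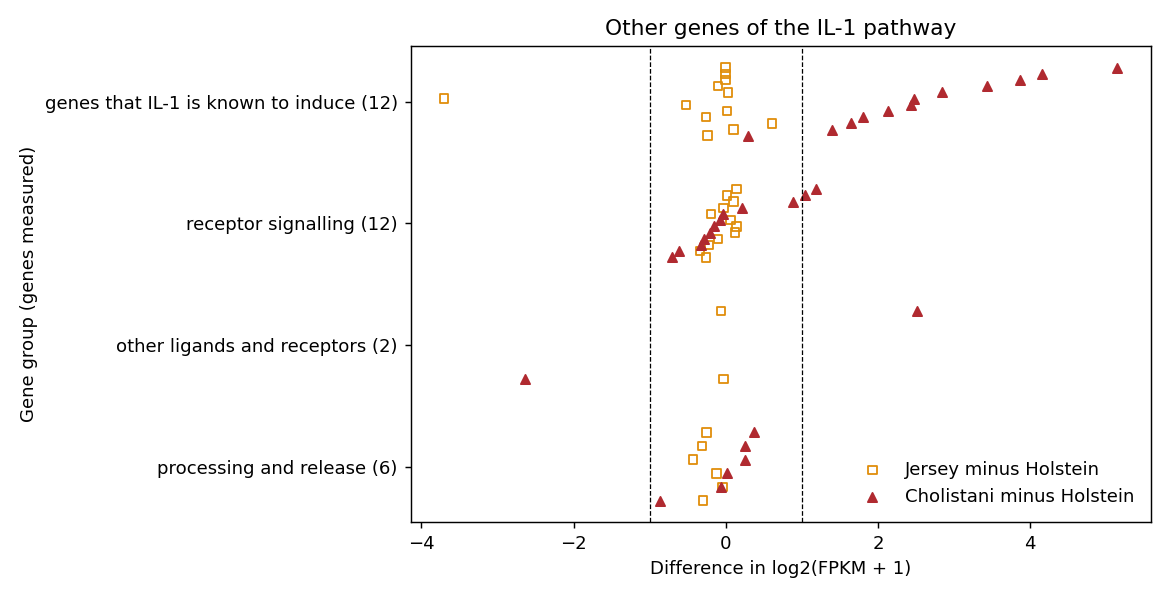
Difference in log2(FPKM + 1) for the 32 other measured genes of the IL-1 pathway, by role, with filled triangles for Cholistani minus Holstein, open squares for Jersey minus Holstein and dashed lines at 2-fold. Of the 12 genes that IL-1 is known to induce, 11 have their triangle right of the upper line (3 of them listed at 0 in both taurine libraries), against 2 of 12 in receptor signalling and 0 of 6 in processing and release. Of all models, 19.7% were that far above Holstein in Cholistani. Genes listed at 0 in a library are drawn at a place that depends on the added 1 FPKM.

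Leukocyte pools hold several cell types, and in such a mixture fewer cells of a type and less RNA per cell cannot be told apart. For the cells that make most IL-1, the summed markers in Cholistani were 0.917 times (neutrophils) and 0.857 times (monocytes) the Holstein sum. Against the Jersey sum they were 1.16 and 1.14 times. The median log2 difference of the neutrophil list was 0.51 against Holstein and 0.89 against Jersey. That of the monocyte list was -0.22 and 0.51. The part of cell numbers in the IL1B values was not tested. The 9 measured of 12 neutrophil markers summed to 39109 FPKM (Holstein), 30824 (Jersey) and 35844 (Cholistani), with 2 higher and 0 lower in Cholistani than in Holstein. Most of each sum came from S100A8, S100A9 and S100A12, at 11065, 7472.5 and 17413 FPKM in Holstein. The 7 measured of 11 monocyte markers summed to 3151, 2363 and 2702 FPKM, with 0 higher and 1 lower. For the marker counts here and below, the shares over all models were 19.7% higher and 13.7% lower against Holstein. IL1B came to 2.83% (Holstein), 2.18% (Jersey) and 68.5% (Cholistani) of the monocyte sum, and IL1RN to 20.3%, 23.7% and 38.1%. Within the neutrophil list the chemokine receptor gene CXCR2 was the farthest from level, with 33.5, 7.62 and 598 FPKM (named after its values were seen).

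The other marker lists differed more in sum on the deposited scale, which affects all marker sums. After rescaling to equal FPKM sums, the median log2 difference against Holstein was -0.06 for T cells and -0.09 for B cells. It was 0.5 for natural killer and cytotoxic cells, -1.75 for platelets and -2.75 for red cell precursors. For neutrophils it was -0.16 and for monocytes -0.9. T cell markers (6 of 9 measured) summed to 5322 FPKM (Holstein), 5418 (Jersey) and 10755 (Cholistani). Most of the difference was CD3E, the 1 marker more than 2-fold above Holstein, at 2041, 2127 and 6016 FPKM. B cell markers (4 of 8) summed to 7003, 8688 and 16736 FPKM. CD79A carried most of this, at 5281, 6190 and 14273 FPKM, while PAX5 was lower in Cholistani, at 296, 381 and 145 FPKM, and the median log2 difference of the list was 0.58 against Holstein and 0.04 against Jersey. Natural killer and cytotoxic markers (6 of 8) summed to 1587, 1298 and 4227 FPKM, with 4 higher and 1 lower than in Holstein. Platelet markers (6 of 8) summed to 5570, 4171 and 1470 FPKM, most of the difference being TUBB1 at 4430, 2997 and 551 FPKM, with 3 lower and 1 higher (GP9) than in Holstein. Red cell precursor markers (4 of 8) summed to 612, 442 and 139 FPKM, most of the difference being ALAS2 at 536, 363 and 32.3 FPKM, with 2 lower and 1 higher (HBA) than in Holstein.

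Because IL1A is also a product of skin epithelium, markers of that tissue were set beside it. The 6 measured of 12 summed to 16.1 FPKM (Holstein), 16.9 (Jersey) and 464 (Cholistani), with 4 higher and 1 lower in Cholistani than in Holstein. KRT17 had 411 FPKM, SFN 12.4 and KRT14 8.47 in Cholistani, and all 3 were listed at 0 in both taurine libraries. KRT10 had 3.73 (Holstein), 4.28 (Jersey) and 23.3 FPKM (Cholistani). EPCAM had 6.64, 10.8 and 8.81 FPKM, and CDH1 5.70, 1.76 and 0 FPKM. KRT5, TP63, DSP and DSG3 were listed at 0 in every library. The marker genes singled out here were named after their values were seen. The part of these cells in the IL1A and IL1B values was not tested.

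As a description of pattern, the named models whose centred log2(FPKM + 1) values over the 3 libraries lay nearest to each gene were listed, among 5458 models with at least 50 FPKM in their highest library. Nearest to IL1B was CCL4, a chemokine gene, at 85.3 FPKM (Holstein), 54.5 (Jersey) and 1811 (Cholistani) (distance 0.11), followed by REG1_BOVIN and DDN1_BOVIN at distances of 0.433 and 0.536. Nearest to IL1A were S100A2, SNORA73 and CABP2, all listed at 0 in both taurine libraries. The CCL4 model runs from 13740611 to 13824002 on chromosome 19, and the CABP2 model from 47128197 to 47405031 on chromosome 29. Whether these long models overlap others was not examined, so their values are uncertain. Nearest to IL1RN were AP3S2, SNX20 and CPIN1_BOVIN, nearest to IL1R1 were SUSD1, OSBPL8 and CNOT6L, and nearest to IL18 were CCDC61, MIB2 and AHDC1, all within a distance of 0.092. With 3 values per gene, such distances only describe these libraries.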

How the data were processed

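Each breed was represented by 1 library of pooled leukocyte mRNA. The authors aligned the paired reads to btau4.0 with TopHat 1.0.14 and Bowtie 0.12.7, discarded reads with more than 20 alignments, assembled transcripts with Cufflinks 0.9.3 and merged them with Ensembl genes. The deposited values are FPKM per gene model, to which the authors applied upper-quartile normalization and a correction of sequence bias. Reads shared between near-identical genes were not examined here. FPKM sums ran from 5949765 in Holstein to 9518432 in Cholistani, and 13409 to 13783 models were above 0 per library.

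The FPKM were used as deposited, with Python 3.11.15 and pandas 2.3.3. Coordinates are printed 1-based, after adding 1 to each start on the assumption that the table counts from 0. The 5 models with a missing estimate were left out of all differences. Differences are log2 ratios of FPKM + 1, which understate those of low genes, and a model was counted as higher or lower at 2-fold or more. Ratios inside a library used FPKM alone. Names were matched by symbol, older symbol or UniProt entry name. Merged or accession-only models were not matched.

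Named pathway genes were, per role, the most abundant and up to 5 with at least 50 FPKM and a 2-fold difference between Cholistani and both taurine libraries. Likeness was the Euclidean distance of centred values. The members and lists were chosen with earlier results of these data known. Alternatives were pseudocounts of 0.1 and 10 FPKM, rescaling to the mean FPKM sum, centring on the median, scaling to GAPDH, summing models of a name, a minimum of 10 FPKM and gene-named models only. Pathway counts under these settings and over genes above 0 in both libraries, ratios to marker sums and the ratio of IL18 to IL18BP were added after seeing the data.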

Additional observations from a re-analysis of the deposited data

How the results depend on the processing

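The scale of the libraries is the main limit. The median log2 difference of all models between Cholistani and Holstein was 0.15 as deposited, -0.05 after centring, -0.3 after scaling to GAPDH and -0.43 after rescaling to the mean FPKM sum, and the share of higher among called models went from 58.9% to 49.4%, 34.1% and 29.7%. IL1B stayed past 2-fold in the same direction under all 6 alternatives, but none of them could have undone a difference of that size. Pseudocounts cannot change its sign. Rescaling changed Cholistani over Holstein by factors of 0.625 (equal sums) and 0.685 (GAPDH), beside a 20.7-fold difference. The log2 differences of IL1B ran from 3.68 to 4.37 against Holstein and from 4.55 to 5.17 against Jersey. IL1A, at 0 in both taurine libraries, could only be counted as higher under each alternative. IL1R1 then passed 2-fold, so that 1 member was lower than in Holstein after rescaling, centring or scaling to GAPDH, and 1 lower than in Jersey after rescaling. IL18 against Jersey ranged from -0.22 to 0.38. Of the processing genes, 1 was lower than in Holstein under the same 3 settings and 1 lower than in Jersey after rescaling. Of the receptor signalling genes, 0 were higher than in either taurine library under those 3 settings and 1 with a pseudocount of 10 FPKM. After rescaling 3 were lower than in Holstein and 1 than in Jersey, and after scaling to GAPDH 2 were lower than in Holstein. Of all models, 27.5% were lower than in Holstein and 26.2% than in Jersey after rescaling. The share lower than in Holstein was 23.9% after scaling to GAPDH and 16.5% after centring. Higher than in Holstein were 11.6% after rescaling, 12.4% after scaling to GAPDH and 16.1% after centring. With a pseudocount of 10 FPKM, 0 of the other ligands and receptors were lower in either comparison. Summing models of a name changed no value, since each member stands on 1 model. No paired analysis was possible because each breed has 1 library, and for the same reason none could be left out. Low values and values of 0 are limited by a depth that FPKM alone do not give.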

Other observations

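The remaining IL-1 family genes, set against the summed markers of the same library, gave the following values. IL1A came to 3.18% of the summed FPKM of monocyte markers in Cholistani. IL18 came to 1.58% (Holstein), 3.59% (Jersey) and 4.07% (Cholistani), and IL1R1 to 4.35%, 4.24% and 2.6%. Against the sum of neutrophil markers IL1B came to 0.228%, 0.167% and 5.16%, and IL1RN to 1.64%, 1.82% and 2.87%.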
